A study of Homo sapiens with 6 samples.

Results

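The ATP-binding cassette (ABC) genes encode membrane pumps and a few soluble ATPases, and they are described here in 6 RNA-seq libraries labelled as PANC-1 cells, an established line from a human pancreatic ductal carcinoma, in a form that resists the nucleoside drug gemcitabine. The identity of the line is taken from the labels and was not tested. The members were taken by symbol, as every row of the deposited mRNA table named ABC, a subfamily letter from A to G and a number. This gave 46 of 19912 rows, for 45 symbols, since ABCF2 has a row with values and another listed at 0. By subfamily these were 12 ABCA, 9 ABCB, 11 ABCC, 4 ABCD, 1 ABCE, 4 ABCF and 5 ABCG rows. Of the libraries, 3 carry the treatment label shSRSF3, a short hairpin RNA against the splicing factor SRSF3, and 3 with the label ctrl are their controls. Both groups carry the same resistance phenotype label, so no drug-sensitive parental cells are part of the comparison, and no batch, culture date, hairpin sequence, clone or drug exposure at harvest is given in the sources used here. Nothing says that the replicates came from separate cultures, so p-values reflect only how far these libraries vary, and that variation may be technical.

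Most ABC proteins use the energy of ATP to move a substrate across a membrane. ABCA and ABCG proteins mainly move sterols and phospholipids, ABCB and ABCC proteins include the multidrug pumps, and ABCD proteins carry fatty acids and related molecules into peroxisomes or a vitamin out of lysosomes. ABCE and ABCF proteins have no membrane part and act in translation. In cancer cells the family is best known for drug efflux: ABCB1 (P-glycoprotein), ABCC1 (MRP1) and ABCG2 (BCRP) export many unrelated drugs, and ABCC4, ABCC5 and ABCC10 can carry nucleotide analogues or other anticancer agents.

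The values are FPKM, the fragments of a gene divided by its length and the library total, and they were found to correspond to whole fragments. Library totals recovered from them ran from 24903382 to 27300517 fragments in the libraries labelled knockdown and from 24558238 to 27351642 in the controls. SRSF3 itself had 37.0, 37.1 and 38.6 FPKM with the knockdown label, against 37.0, 39.6 and 39.2 FPKM in the controls. Its groups overlapped (log2 change -0.04 with an SE of 0.05, limma adjusted p = 0.612; exact two-sided permutation p = 0.3, where 0.1 is the smallest that 3 against 3 allows). The targeted transcript thus showed no detectable fall, so directions are given for libraries by their label, not for a shown loss of SRSF3. The libraries labelled knockdown differed more among themselves than the controls did, with a chi-square per gene of 12.8, 21.5 and 7.49 between pairs, against 3.06 to 5.24 between control pairs. By this measure knockdown library 3 was nearer to each control (12.9, 14.1 and 15.9) than to knockdown library 1 (21.5). It was nearest to knockdown library 2 (7.49). The keratins KRT8, KRT18 and KRT19 and the epithelial genes EPCAM and CDH1 were abundant, while the ductal keratin KRT7 was at 0.0895 to 0.200 FPKM in the libraries labelled knockdown and at 0.129 to 0.241 FPKM in controls. No marker on the short acinar, endocrine, fibroblast and leukocyte lists averaged 0.5 FPKM, and the summed level of each list was at most 0.315 FPKM in the libraries labelled knockdown and 0.751 FPKM in controls. In these bulk samples, fewer cells of a type and less RNA per cell cannot be told apart.

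Of the 46 rows, 42 were above 0 in at least 1 library and 22 averaged at least 0.5 FPKM over the 6 libraries, the level needed to enter the test (limma on log2(FPKM + 1) across the whole table, two-sided, Benjamini-Hochberg adjustment, threshold 0.05). Among these 22, 3 fell and 0 rose in the libraries labelled knockdown, where 16.8% of all tested genes passed in either direction. Among those that fell were the sterol exporter gene ABCG1 and the lipid transporter gene ABCA7. Over all 10823 genes tested, 5.91% were lower and 10.9% were higher, and the family's counts are read against those shares. Without control library 1 or control library 2 the count of members that fell was 1, ABCG1. A further 3 members were higher and 2 lower at an unadjusted limma p under 0.05, a mark that 33% of all tested genes met. With voom, limma's method for counts, applied to the recovered fragments, 3 members were lower and 1, ABCF2, was higher, where 7.04% and 11.8% of all genes were. The median log2 change of the 22 was 0.00 against 0.02 over all tested genes. The ranges of the groups were separate in 2 members with the knockdown label higher and in 5 with it lower, and over all tested genes in 22.6% and 15.3%. Of the calls over all genes, 64.8% were higher as deposited, 53.6% after median scaling and 50.3% after quantile normalization, while the family's counts were 0 higher and 3 lower under all of these.

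**Figure D1:**
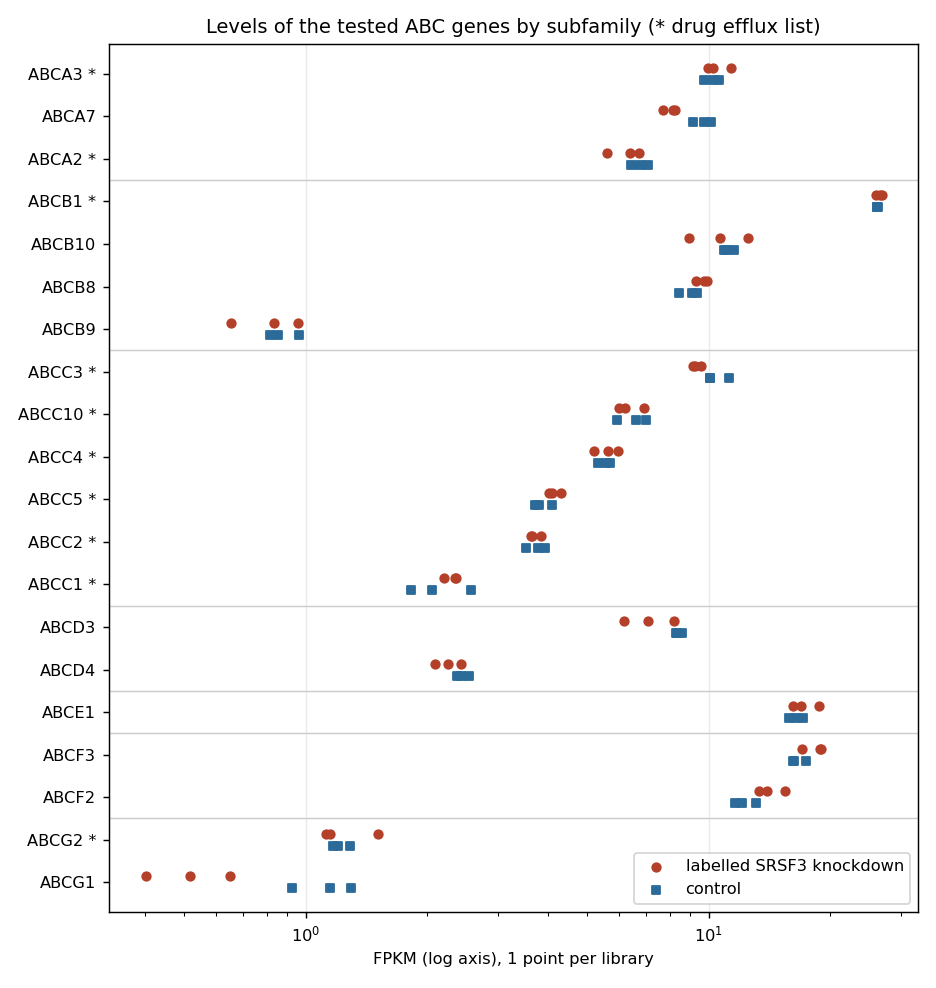
FPKM of 20 of the 22 tested ABC genes in each library (log axis), grouped by subfamily, with the libraries labelled SRSF3 knockdown as circles above the control libraries as squares; asterisks mark the drug efflux list. ABCB1, at 26.02 to 26.8 FPKM, lies above all the others, and ABCG1 is the gene whose groups lie farthest apart.

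Levels among the tested members spanned more than an order of magnitude. ABCB1 was the most abundant at a mean of 26.3 FPKM over the 6 libraries, and its range of 26.02 to 26.8 FPKM did not touch that of the next gene. ABCF3 (mean 17.5 FPKM) and ABCE1 (16.9 FPKM) followed with overlapping ranges, and ABCF2 (13.2 FPKM) stood apart below them. From ABCF2 down to ABCC4 (5.55 FPKM) each gene's range overlapped that of its neighbour in the order, so these ranks are not firm. ABCC5 (3.99 FPKM) and ABCC2 (3.72 FPKM) also overlapped each other. ABCD4 (2.35 FPKM) and ABCC1 (2.23 FPKM) overlapped each other. ABCG2 (1.24 FPKM) was apart from both, and ABCB9 (0.845 FPKM) and ABCG1 (0.823 FPKM) closed the order with overlapping ranges. The summed FPKM of the family was 169, 180 and 175 in the libraries labelled knockdown and 180, 172 and 172 in the controls.

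Of the 15 genes on the drug efflux list, 10 were abundant enough to test, and 0 of these 10 passed in either direction in limma, where 16.8% of all tested genes did. ABCC3 alone had an unadjusted limma p under 0.05, against 33% of all genes, and voom called 0, against 18.9%. With 10 genes, a count of 0 lies near those adjusted shares and does not set the list apart. The median log2 change of the 10 was 0.01, against 0.02 over all tested genes. The summed FPKM of all 15 was 75.5, 78.7 and 73.9 in the libraries labelled knockdown and 79.7, 76.0 and 74.6 in the controls, and the groups overlapped. ABCB1 made up 33.7% to 35.6% of that sum in the libraries labelled knockdown and 32.9% to 35.1% in controls.

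ABCB1, the P-glycoprotein pump for bulky hydrophobic drugs, had 26.8, 26.6 and 26.02 FPKM in the libraries labelled knockdown, against 26.2, 26.2 and 26.2 FPKM in the controls. The control libraries were almost identical and lay inside the range of the others, at 3735 to 4161 fragments per library over both groups. The log2 change was 0.01 (SE 0.04, limma adjusted p = 0.853), and its 95% interval ran from -5.70% to 8.13% on the FPKM + 1 scale. The sign turned with scaling, to -0.01 after median scaling and -0.06 after quantile normalization, and neither passed (the adjusted p over all alternatives ran from 0.357 to 0.961).

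ABCG2, the breast cancer resistance protein, was far less abundant, with 1.15, 1.51 and 1.13 FPKM in the libraries labelled knockdown and 1.203, 1.29 and 1.17 FPKM in controls. The groups overlapped, on 148 to 190 fragments per library (log2 change 0.02, SE 0.08, limma adjusted p = 0.862). Its 95% interval ran from -0.15 to 0.20 on the log2(FPKM + 1) scale, which narrows the interval of a gene at so low a level. With voom on fragments the log2 change was 0.03 with a wider SE of 0.14.

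Among the ABCC pumps, which export drugs and conjugates often together with glutathione, ABCC3 was the most abundant. ABCC3 exports bile salts and glucuronides across the basolateral membrane. It had 9.23, 9.56 and 9.11 FPKM in the libraries labelled knockdown, against 11.2, 10.1 and 10.04 FPKM in the controls. The groups did not overlap, but the difference missed the threshold (log2 change -0.15, SE 0.06, limma adjusted p = 0.0934, from 0.0557 to 0.280 over the alternatives).

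The other ABCC pumps had overlapping groups. ABCC10 had 6.21, 6.89 and 5.99 FPKM in the libraries labelled knockdown and 7.002, 6.59 and 5.92 FPKM in controls. ABCC4, an exporter of cyclic nucleotides and nucleotide analogues, had 5.18, 5.63 and 5.95 FPKM in the libraries labelled knockdown and 5.69, 5.30 and 5.57 FPKM in controls. ABCC5, which also carries nucleotide analogues, had 4.07, 4.29 and 4.01 FPKM in the libraries labelled knockdown and 4.08, 3.71 and 3.80 FPKM in controls. Their log2 changes were -0.03, 0.01 and 0.08, with limma adjusted p-values of 0.821, 0.8998 and 0.397 in that order. An antisense transcript of ABCC5, ABCC5-AS1 in the lncRNA table, had 0.250, 0 and 0.156 FPKM in the libraries labelled knockdown and 0, 0.0834 and 0.390 FPKM in controls, and whether strand was used in counting is not known.

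ABCC2, the apical pump for organic anion conjugates, had 3.63, 3.84 and 3.64 FPKM in the libraries labelled knockdown and 3.91, 3.77 and 3.53 FPKM in controls. ABCC1, the multidrug resistance protein MRP1, had 2.35, 2.20 and 2.35 FPKM in the libraries labelled knockdown, against 2.57, 1.83 and 2.05 FPKM in controls. The controls of ABCC1 were spread more widely than the libraries labelled knockdown and enclosed them. The log2 changes of ABCC2 and ABCC1 were -0.01 and 0.07, with limma adjusted p-values of 0.922 and 0.578. Both intervals, from -0.14 to 0.12 and from -0.11 to 0.26 on the log2(FPKM + 1) scale, include changes of either sign.

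The remaining tested members of the list belong to subfamily A. ABCA3, a lipid pump of lamellar bodies linked to drug storage in leukaemia cells, had 10.3, 11.3 and 9.96 FPKM in the libraries labelled knockdown and 10.6, 10.2 and 9.73 FPKM in controls. ABCA2, an endolysosomal sterol and sphingolipid transporter linked to estramustine resistance, had 6.36, 6.70 and 5.58 FPKM in the libraries labelled knockdown and 7.06, 6.76 and 6.41 FPKM in controls. Their groups overlapped (log2 changes 0.04 and -0.10, limma adjusted p = 0.655 and 0.317). ABCB4, ABCB5, ABCC6, ABCC11 and ABCC12 were too low to test. ABCB4 had 25, 21 and 18 fragments in the libraries labelled knockdown and 18, 24 and 18 in controls, and the other 4 had at most 12 fragments in any library. ABCC6 shares near-identical pseudogenes, so its few fragments are uncertain.

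**Figure D2:**
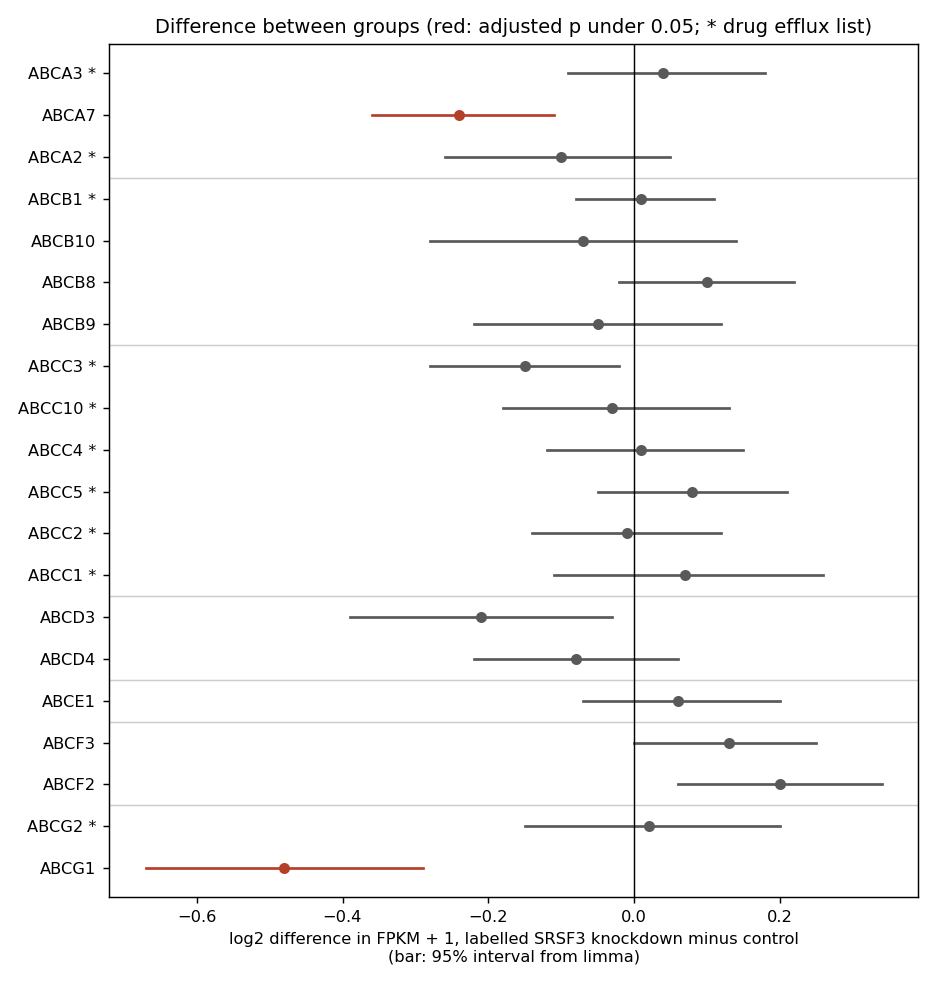
Log2 difference in FPKM + 1 of 20 of the 22 tested ABC genes, libraries labelled SRSF3 knockdown minus control, with 95% intervals from limma. ABCG1 and ABCA7 (red) passed the threshold and both were lower; every drug efflux gene (asterisks) lay between -0.15 and 0.08.

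Of the 3 tested ABCA genes 1 fell, and of the 2 tested ABCG genes 1 fell, where 5.91% of all tested genes were lower. Counts over so few genes do not set either subfamily apart. ABCG1, which hands cholesterol to high-density lipoprotein and is induced by the oxysterol receptors LXR, had 0.517, 0.649 and 0.401 FPKM in the libraries labelled knockdown, against 0.925, 1.15 and 1.30 FPKM in the controls. All 3 libraries labelled knockdown were below all 3 controls, from 81, 99 and 67 recovered fragments against 139, 180 and 217. The mean of 0.522 ± 0.124 FPKM was 0.465 times the control mean of 1.124 ± 0.187 FPKM (SD, n = 3 each). ABCG1 fell by 0.48 on the log2(FPKM + 1) scale (SE 0.09, limma adjusted p = 0.00641). That scale understates a change at so low a level, and voom on fragments gave -1.13 (SE 0.19, adjusted p = 0.00231). ABCG1 passed in each alternative in which it was tested, including each library left out, with an adjusted p from 0.00231 to 0.0343. At a minimum mean of 1 FPKM it was not tested.

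ABCA7, which moves phospholipids to the outer membrane leaflet and is known as an Alzheimer's disease risk gene, fell as well. It had 7.71, 8.22 and 8.15 FPKM in the libraries labelled knockdown, against 10.1, 9.73 and 9.11 FPKM in the controls. The groups did not overlap. Its mean was 8.03 ± 0.278 FPKM in the libraries labelled knockdown and 9.66 ± 0.514 FPKM in controls (SD, n = 3 each; log2 change -0.24, SE 0.06, limma adjusted p = 0.0188). Leaving out control library 1 (adjusted p = 0.0724) or control library 2 (0.0805) ended the call, within a range of 0.00974 to 0.0805 over all alternatives.

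Promoter sequence is shown for ABCA7, as a member that fell, and for ABCB1, as the most abundant pump, to set their starts side by side. Each line holds the 250 bases before an annotated start in RefSeq (GRCh38.p14), 5′ to 3′ on the gene's strand, and capitals mark the letters GGGCGG of a GC box, a CCAAT box or the letters TATAAA of a TATA box, searched on both strands. The windows are chr19:1039857-1040106 on the plus strand for ABCA7, and chr7:87600885-87601134 and chr7:87713296-87713545 on the minus strand for the downstream and upstream starts of ABCB1.
ABCA7: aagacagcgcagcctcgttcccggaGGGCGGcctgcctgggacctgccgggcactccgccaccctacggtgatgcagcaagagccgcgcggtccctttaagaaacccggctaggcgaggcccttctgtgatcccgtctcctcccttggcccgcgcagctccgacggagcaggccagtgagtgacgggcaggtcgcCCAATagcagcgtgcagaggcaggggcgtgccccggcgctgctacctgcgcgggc
ABCB1 downstream start: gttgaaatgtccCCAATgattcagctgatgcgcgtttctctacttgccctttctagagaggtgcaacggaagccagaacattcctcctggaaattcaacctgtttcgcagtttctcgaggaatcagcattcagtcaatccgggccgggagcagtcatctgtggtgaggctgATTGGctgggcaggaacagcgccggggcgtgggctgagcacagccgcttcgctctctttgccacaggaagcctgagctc
ABCB1 upstream start: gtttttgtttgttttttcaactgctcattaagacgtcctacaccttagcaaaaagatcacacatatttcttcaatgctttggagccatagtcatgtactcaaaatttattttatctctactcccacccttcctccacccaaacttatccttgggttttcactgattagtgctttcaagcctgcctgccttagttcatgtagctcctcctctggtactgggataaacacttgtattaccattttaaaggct

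The ABCA7 window was 70.4% G or C with 25 CpG dinucleotides, and it held 1 GC box and 1 CCAAT box. The downstream ABCB1 window was 55.6% G or C with 12 CpG and held 2 CCAAT boxes, 1 of them on the reverse strand at base -79 from the start. The upstream ABCB1 window was 39.2% G or C with 1 CpG and held none of these motifs. Of 35116 RefSeq windows of this length, 42.6% held a GC box, 32% a CCAAT box and 10.7% a TATA box. Among 53 windows of 35 member symbols the shares were 47.2%, 20.8% and 11.3%, and several windows of a gene can overlap. A match is a description of these letters, and which start these cells use was not measured here.

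Other lipid transporters were low. ABCA1, the partner of ABCG1 in cholesterol efflux, had 7, 14 and 22 fragments in the libraries labelled knockdown and 24, 18 and 21 in controls, with overlapping groups and no test. ABCG5 and ABCG8, the sterol exporters of gut and liver, had at most 11 fragments in any library. ABCG4 had 16, 2 and 2 fragments in the libraries labelled knockdown and 4, 1 and 3 in controls, so a single library held most of them. ABCA5, a lysosomal lipid transporter, had 51, 72 and 87 fragments in the libraries labelled knockdown, against 95, 128 and 111 in controls. Those groups did not overlap, but the mean was under the level tested, and without the level filter limma gave an adjusted p = 0.0854.

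**Figure D3:**
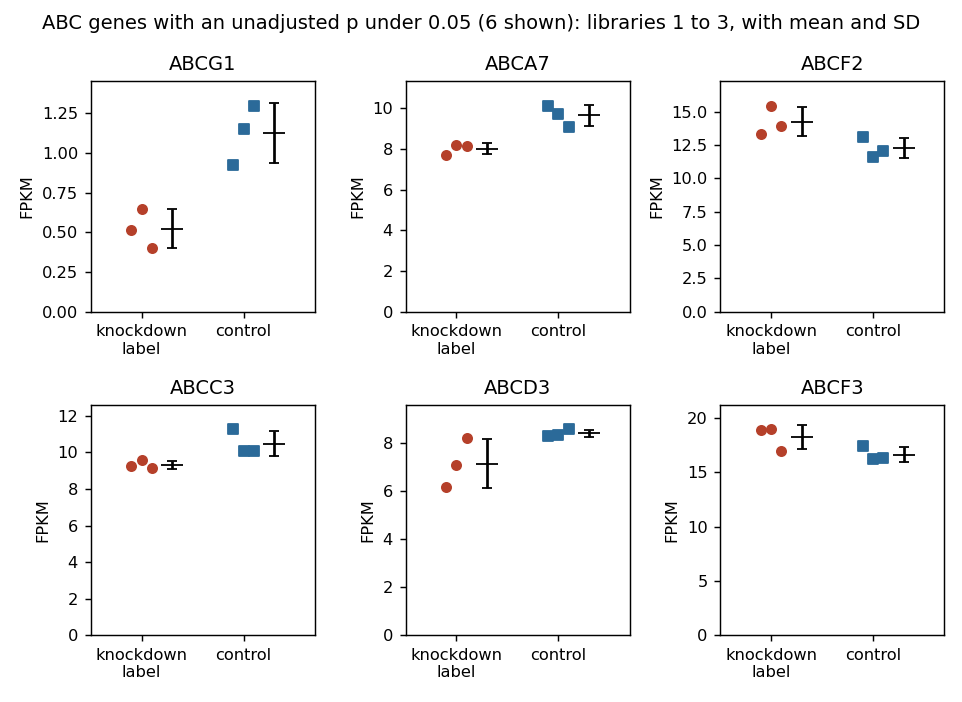
FPKM in libraries 1 to 3 of each group for 6 of the 8 ABC genes with an unadjusted limma p under 0.05, with the mean and SD beside the points. ABCG1 and ABCA7 passed after adjustment; in ABCD3 the library labelled knockdown 3 lies close to the controls.

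ABCD3, which imports bile acid precursors and other acyl compounds, had 6.17, 7.07 and 8.19 FPKM in the libraries labelled knockdown, against 8.30, 8.33 and 8.56 FPKM in the controls. The controls were tight and the other group was spread, with knockdown library 1 the lowest and library 3 just under the controls. The difference did not pass (log2 change -0.21, SE 0.08, limma adjusted p = 0.0943), and it did without knockdown library 3 (log2 change -0.30, adjusted p = 0.00998, within a range of 0.00998 to 0.232). ABCD4, needed to move vitamin B12 out of lysosomes, had overlapping groups at 2.26 ± 0.163 FPKM in the libraries labelled knockdown and 2.45 ± 0.0851 FPKM in controls (SD, n = 3 each; limma adjusted p = 0.395). ABCD2, a peroxisomal fatty acid transporter, had at most 2 fragments in any library.

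Mitochondrial members of subfamily B had overlapping groups in the cases of ABCB8 and ABCB10. ABCB8, part of a mitochondrial potassium channel, had 9.64 ± 0.313 FPKM in the libraries labelled knockdown and 8.94 ± 0.466 FPKM in controls (SD, n = 3 each; limma adjusted p = 0.237). ABCB10, which supports haem synthesis, had 8.91, 10.7 and 12.5 FPKM in the libraries labelled knockdown and 11.5, 11.05 and 10.9 FPKM in controls. The libraries labelled knockdown fell on both sides of the controls, and the log2 change of -0.07 became 0.05 without knockdown library 1 (limma adjusted p = 0.651 with all libraries, from 0.0957 to 0.816 over the alternatives). ABCB6, a porphyrin transporter, had 27, 37 and 41 fragments in the libraries labelled knockdown, against 54, 49 and 59 in controls. Its groups did not overlap, its mean was under the level tested, and without the level filter limma gave an adjusted p = 0.0547.

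Outside mitochondria, ABCB9, a lysosomal peptide transporter, had 0.814 ± 0.152 FPKM in the libraries labelled knockdown and 0.877 ± 0.0765 FPKM in controls (SD, n = 3 each; limma adjusted p = 0.674). ABCB11, the bile salt export pump of liver, had at most 6 fragments in any library.

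The 3 soluble members acting in translation that were tested were abundant. All 3 had positive log2 changes, as did 6002 of all 10823 tested genes, and none was past the threshold in limma. After quantile normalization the log2 changes were 0.00448 for ABCE1, 0.15 for ABCF2 and 0.07 for ABCF3. ABCE1, which splits ribosomes after termination, had 16.2, 16.9 and 18.7 FPKM in the libraries labelled knockdown and 16.5, 15.8 and 17.2 FPKM in controls, with overlapping groups (log2 change 0.06, SE 0.06, limma adjusted p = 0.513). ABCF3, whose yeast relative Gcn20 helps activate the stress kinase Gcn2, had 18.9, 19.0 and 17.0 FPKM in the libraries labelled knockdown, against 17.4, 16.2 and 16.3 FPKM in controls. Its groups overlapped (log2 change 0.13, SE 0.06, limma adjusted p = 0.149), and it passed without knockdown library 3 (log2 change 0.18, adjusted p = 0.0338, from 0.0338 to 0.370 over the alternatives).

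ABCF2 had 13.3, 15.4 and 13.9 FPKM in the libraries labelled knockdown, against 13.1, 11.6 and 12.1 FPKM in the controls. The groups were separate by a narrow margin. The log2 change was 0.20 (SE 0.07, limma adjusted p = 0.0603), just outside the threshold. It passed with voom (log2 change 0.21, adjusted p = 0.0492) and without knockdown library 1 (0.24, adjusted p = 0.0356), within a range of 0.0356 to 0.215 over the alternatives.

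ABCF1, an initiation factor partner that dividing cells use, was listed at 0 in all 6 libraries and gives no reading here. Of the 20 protein-coding genes beside it in the RefSeq order, 10 on each side, 19 are in the table and 14 of these were also listed at 0 throughout. They include the beta-tubulin gene TUBB, the membrane scaffold gene FLOT1, the helicase gene DHX16 and the mitochondrial ribosome gene MRPS18B. For ABCF2 and ABCF3 the same count was 1 of 16 and 2 of 20, and of all mRNA rows 18.1% were at 0 in every library. The antigen peptide transporter genes TAP1 and TAP2, ABC proteins whose symbols lie outside the naming rule, were likewise at 0, with 15 of 20 and 16 of 20 neighbours at 0. The cause was not tested.

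**Figure D4:**
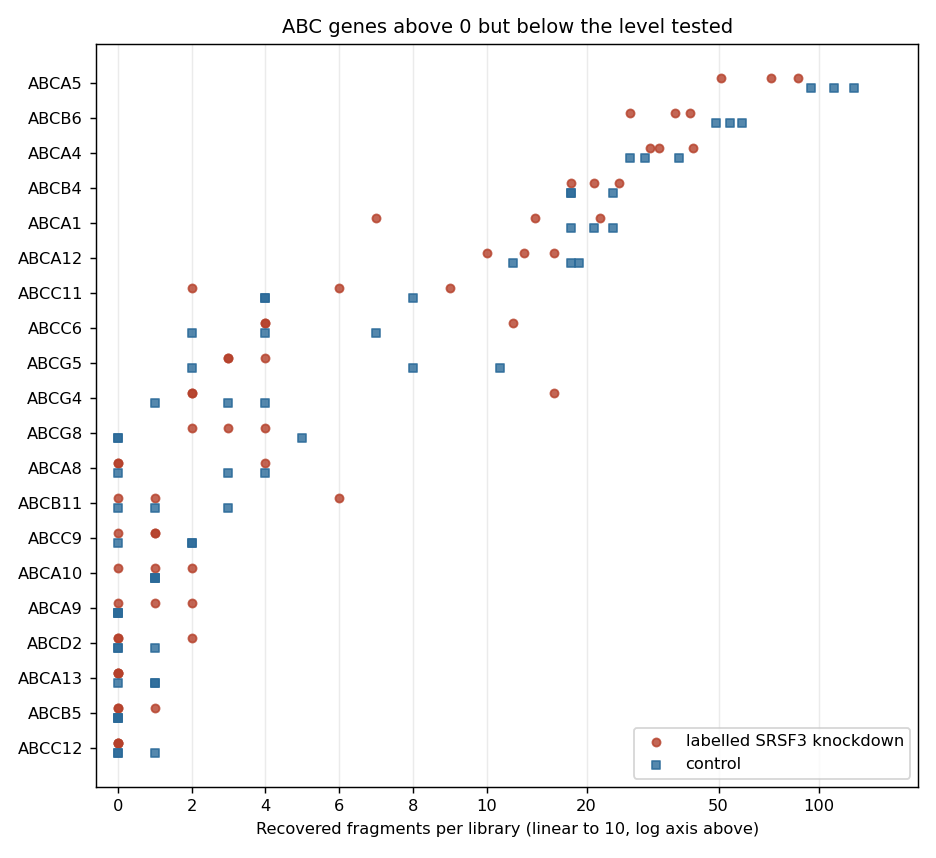
Recovered fragments per library for the 20 ABC genes that were above 0 but averaged under 0.5 FPKM (linear to 10 fragments, logarithmic above), with the libraries labelled SRSF3 knockdown as circles above the control libraries as squares. ABCA5 and ABCB6 are the genes whose groups are separate, both lower with the knockdown label; 10 of the 20 had fewer than 20 fragments in all 6 libraries together.

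In all, 24 rows were below the level tested, of which 20 were above 0 somewhere and 4 were at 0 in every library. The 4 were ABCA6, ABCC8, ABCF1 and the repeated ABCF2 row. ABCC8, a regulatory subunit of the ATP-sensitive potassium channel of insulin-secreting cells, and its relative ABCC9 had 0 and at most 2 fragments in any library. Among the ABCA genes, ABCA4, the retinal flippase, had 31, 42 and 33 fragments in the libraries labelled knockdown and 30, 27 and 38 in controls, and the skin lipid transporter ABCA12 had 13, 16 and 10 against 12, 18 and 19. ABCA8, ABCA9, ABCA10 and ABCA13 had at most 4 fragments in any library, so no difference of moderate size was detectable in them at this depth.

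Genes that work with the family were read from 8 lists with 62 symbols, of which 51 were tested. In these, 5 rose and 1 fell, against 10.9% and 5.91% of all tested genes. The largest change belonged to MVP, the major vault protein once named lung resistance-related protein, with 35.0, 35.8 and 32.4 FPKM in the libraries labelled knockdown, against 22.1, 23.1 and 21.3 FPKM in the controls. The groups were far apart, and MVP rose (log2 change 0.61, SE 0.05, limma adjusted p = 0.000151), past the threshold in each of the 15 alternatives (adjusted p from 5.24e-05 to 0.00444). No other gene passed in limma on its list of 6, which otherwise holds genes of glutathione supply. GCLC, which catalyses the limiting step of glutathione synthesis, was at 6.31 ± 0.197 FPKM in the libraries labelled knockdown and 7.21 ± 0.186 FPKM in controls (SD, n = 3 each; log2 change -0.17, SE 0.05, limma adjusted p = 0.0541, and 0.0349 with voom).

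Of 5 tested sterol efflux partners, 1 rose and 1 fell, where 10.9% of all tested genes were higher and 5.91% lower. Counts over so few genes do not set the list apart. SCARB1, the receptor that exchanges cholesterol with high-density lipoprotein, rose, with 12.7 ± 1.00 FPKM in the libraries labelled knockdown and 9.96 ± 0.688 FPKM in controls (SD, n = 3 each; log2 change 0.32, SE 0.07, limma adjusted p = 0.0122). MYLIP, which degrades the LDL receptor, fell, with 3.84 ± 0.526 FPKM in the libraries labelled knockdown and 5.27 ± 0.415 FPKM in controls (SD, n = 3 each; log2 change -0.38, SE 0.08, limma adjusted p = 0.0146). APOE, on the same list but too low to test, had 29, 12 and 11 fragments in the libraries labelled knockdown. Its controls had 9, 6 and 10 fragments, and the FPKM ranges of the groups did not overlap. Without the level filter limma gave APOE an adjusted p = 0.293. The adjusted p for SCARB1 was 0.0570 without control library 3 and 0.0511 with no filter, within a range of 0.00433 to 0.0570. For MYLIP it was 0.0575, 0.0529 and 0.0504 without control library 1, control library 3 and knockdown library 2, and 0.0661 with no filter, within a range of 0.00441 to 0.0661.

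Of 12 tested regulators known to act on ABC genes, limma called 0, voom called 1, and 4 had an unadjusted limma p under 0.05. Over all tested genes these shares were 16.8%, 18.9% and 33%, so the regulators' counts do not stand apart from the table. NR1H2, encoding LXR beta, was the nearest to the threshold, at 40.9 ± 2.69 FPKM in the libraries labelled knockdown and 35.3 ± 2.38 FPKM in controls (SD, n = 3 each; log2 change 0.21, SE 0.06, limma adjusted p = 0.0522, and 0.0386 with voom). NR1H3, encoding LXR alpha, stood at 4.41 ± 0.579 FPKM in the libraries labelled knockdown and 4.54 ± 0.188 FPKM in controls (limma adjusted p = 0.757). The drug-sensing receptor gene NR1I2 and the bile acid receptor gene NR1H4 were listed at 0 in all libraries.

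The other lists gave 1 call each or none, where 16.8% of all tested genes were called in either direction. A single call in lists this small does not set them apart. Among 7 peroxisomal partners PEX19, the carrier of peroxisomal membrane proteins, rose (log2 change 0.29, SE 0.06, limma adjusted p = 0.0146; 0.0748 without control library 2 and 0.05002 with no filter, within a range of 0.0104 to 0.0748). Among 8 mitochondrial iron-sulfur and haem genes ALAS1, which starts haem synthesis, rose, with 56.6, 47.2 and 44.0 FPKM in the libraries labelled knockdown and 38.9, 38.4 and 37.2 FPKM in controls (log2 change 0.35, SE 0.08, limma adjusted p = 0.0154). Leaving out control library 2 (adjusted p = 0.0528) or 3 (0.0611) ended its call, as did dropping the filter (0.0676), within a range of 0.00420 to 0.0676. Among 5 tested membrane and channel partners EZR, which tethers apical pumps to actin, rose (log2 change 0.19, SE 0.05, limma adjusted p = 0.0356). Of these 5 genes, 4 had positive log2 changes, where 6002 of all 10823 tested genes did. The other gene of the 5, RDX, had a log2 change of -0.14 (limma adjusted p = 0.132). MSN and PDZK1 on this list were too low to test. PDZK1 had 15, 25 and 21 fragments in the libraries labelled knockdown, against 29, 26 and 46 in controls. Its groups did not overlap, and without the level filter limma gave an adjusted p = 0.160. For EZR the call ended when control library 1, 2 or 3 was left out (0.0978, 0.157 and 0.145), without knockdown library 2 (0.106), with no filter (0.0567) and after quantile normalization (0.123), within a range of 0.0144 to 0.157. Of 7 genes of ribosome rescue and the GCN2 pathway limma called 0, voom called 0, and 1 had an unadjusted limma p under 0.05, against 16.8%, 18.9% and 33% of all tested genes, and counts over so few genes do not set the list apart. The chloride channel gene CFTR, itself an ABC protein, was at 2.82 ± 0.361 FPKM in the libraries labelled knockdown and 2.62 ± 0.162 FPKM in controls (SD, n = 3 each; limma adjusted p = 0.535).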

How the data were processed

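The authors deposited FPKM values in 2 tables, with 19912 mRNA and 14145 lncRNA rows. Per the submitters' processing notes the tools were HISAT2, StringTie, Cuffdiff and edgeR, with no version or role. Per the labels' protocols, both a poly-T-selected and a stranded, rRNA-depleted preparation were made, and which one gave these values is not stated. Build, annotation and strand setting were not given in the sources used here. RefSeq (GRCh38.p14) gave only promoter sequences and gene order. Whole fragments were recovered with 1 total per library and 1 length per gene (tolerance 0.003 fragments) for 14776 of 14803 mRNA rows above 0 in at least 3 libraries, and for all 42 members above 0. Numbers of very low rows are the smallest that fit. At these depths 1 FPKM is 24.6 to 27.4 fragments per kilobase. Replicates differed by more than counting noise.

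Limma 3.58.1 in R 4.3.3 was run with a trend on log2(FPKM + 1) over mRNA rows averaging 0.5 FPKM or more, with Benjamini-Hochberg adjustment. On simulated data for this comparison (10799 genes, assumed dispersion 0.003) it called 28% of genes changed 1.2-fold and 92% changed 1.5-fold. The simulation gave both groups the same dispersion, whereas the libraries labelled knockdown differed more among themselves than the controls did. It also pooled genes of all levels, so these shares may overstate what was detectable here, above all for low genes. The members, lists and tests were chosen with earlier results of these data known. Given in each library were, by rule, members past the threshold or with an unadjusted p under 0.05, tested drug efflux genes and the most abundant gene of each subfamily; the other members are given by summaries or single values. Of the tested members, 2 are not reported here by name. Alternatives were another pseudocount, other filters, scalings, robust empirical Bayes, voom, rows without whole fragments left out, leaving out each library in turn, and the replicate number as a block.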

Additional observations from a re-analysis of the deposited data

How the results depend on the processing

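The count of family members called was 0 higher and 3 lower as reported. It became 1 higher with voom on recovered fragments, and ran from 0 to 1 higher and from 1 to 4 lower when each library was left out in turn. ABCG1 was the only member called lower each time a library was left out. Calls over all genes numbered 1819 as reported (1179 higher, 640 lower) and 960 (595 and 365) with no filter, and ran from 647 to 2742 when a library was left out (389 to 1775 higher and 241 to 967 lower). They numbered 844 and 2742 without knockdown libraries 2 and 3, and 1082, 647 and 651 without control libraries 1, 2 and 3. The genes called on the 8 pathway lists numbered 6 as reported, 1 with no filter and between 2 and 13 with a library left out, 13 without knockdown library 3 and 3 and 2 without control libraries 2 and 3. Among members not called, signs turned for ABCB1 (-0.01 with median scaling, -0.06 with quantile normalization), ABCC4 (-0.01 with median scaling) and ABCC2 (0.01 with quantile normalization). With a library left out, the log2 change ran from -0.11 to 0.01 for ABCB9, -0.18 to 0.05 for ABCB10, -0.04 to 0.02 for ABCC2, -0.01 to 0.08 for ABCA3, -0.06 to 0.07 for ABCG2, -0.03 to 0.06 for ABCC4, -0.08 to 0.02 for ABCC10 and -0.00151 to 0.17 for ABCC1. The cause of these moves was not tested; a library left out also removes a sample. Of 328 values of the 22 tested members under 15 alternatives, 301 kept their direction and their side of the threshold, 8 lost a call, 4 gained one and 15 turned sign.

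The shared replicate numbers do not mark a stated batch, so the libraries were not treated as pairs. Same-numbered libraries deviated from their group means with correlations of 0.08, 0.04 and 0.28 over 10823 genes. Knockdown libraries 1 and 3 correlated best with the control of the same number, and knockdown library 2 with control library 1 (0.15). With the numbers as a replicate block, 2323 genes were called, against 1819 without it. The block left 0 members higher and 3 lower, and the SRSF3 log2 change was -0.04. Depth limits the 20 low members most, and the 0 values of ABCF1 and its neighbours limit what can be said of them.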
